A study of Mus musculus with 2 samples.

Results

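Transcripts for making heme and handling iron were examined in the tibia of telomerase-deficient and control mice. The set holds 36 genes, chosen by symbol from the platform's probe annotation, of 19057 genes with a probe on the array. They were read by 74 probes, of which 57 were above background on at least 1 array. That left 35 detected members among 9953 detected genes, and Hpx was the member above background on neither array. The Terc-/- pool came from 22-week-old female C57BL/6 mice labelled G3 that lack the RNA component of telomerase. The Terc+/+ pool came from female C57BL/6 mice of the same age. Each pool mixed tibia RNA of 3 mice and was hybridised to 1 array, so the spread between animals was not measured, no test can be made and every comparison below describes these 2 pools.

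Heme is built from glycine and succinyl-CoA by a chain of enzymes that starts and ends in the mitochondrion and passes through the cytosol. Red-cell precursors in the marrow are the largest users of this pathway, because each haemoglobin chain carries a heme. They take up iron bound to transferrin, move it into the mitochondrion for heme and iron-sulphur (Fe-S) clusters, and keep the surplus in ferritin. Macrophages close the cycle by breaking down the heme of old red cells and exporting the iron. The tibia holds this marrow together with bone, cartilage and attached muscle, and in such bulk RNA fewer cells of a type and less RNA per cell cannot be told apart.

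The arrays had median raw intensities of 138 in Terc-/- and 127 in Terc+/+, with 15363 and 16640 probes above background (detection p under 0.01). The only Terc probe was above background on neither array, at 112.2 in Terc-/- and 111.9 in Terc+/+, and gives no check of the genotype. Raw intensities are in arbitrary units and cannot be compared between probes. Differences are on the log2 scale after background correction and quantile normalization, Terc-/- minus Terc+/+, from the brightest detected probe of a gene. Genes at or past 2-fold are counted as higher or lower, which is a rule of size. As a measure of the spread between probes of a gene, differences of probes detected on both arrays varied around the mean of their gene. The SD was 0.31 log2 over 2870 genes. Probes of a gene share the same pools and arrays, so this spread leaves out error between arrays or pools.

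Most genes that make heme or bring iron to it were lower in the Terc-/- pool, while those that store, sense or export iron lay within 2-fold. Of the 35 detected members, 17 (48.6%) were at least 2-fold lower in Terc-/-, where 8.81% of all detected genes were. A single member, Hp, was at least 2-fold higher, or 2.86% of members, where 6.86% of all detected genes were. The remaining 17 lay within 2-fold, and 9 of them differed by less than the spread between probes of a gene. The median log2 difference was -0.82 over the members and 0.01 over all detected genes. This median is the value of Cpox, a dim gene above background in Terc+/+ only, and it was -0.48 with Cpox and Steap3 at their bounds. The count of lower members was 17 at a 1.5-fold limit as well, and 12 at 3-fold. The share of all detected genes at these limits was not counted. With the steps grouped after their values were seen, 15 of the 20 detected genes of synthesis, mitochondrial carriers, import and Fe-S clusters were lower, and 2 of the other 15.

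**Figure D1:**
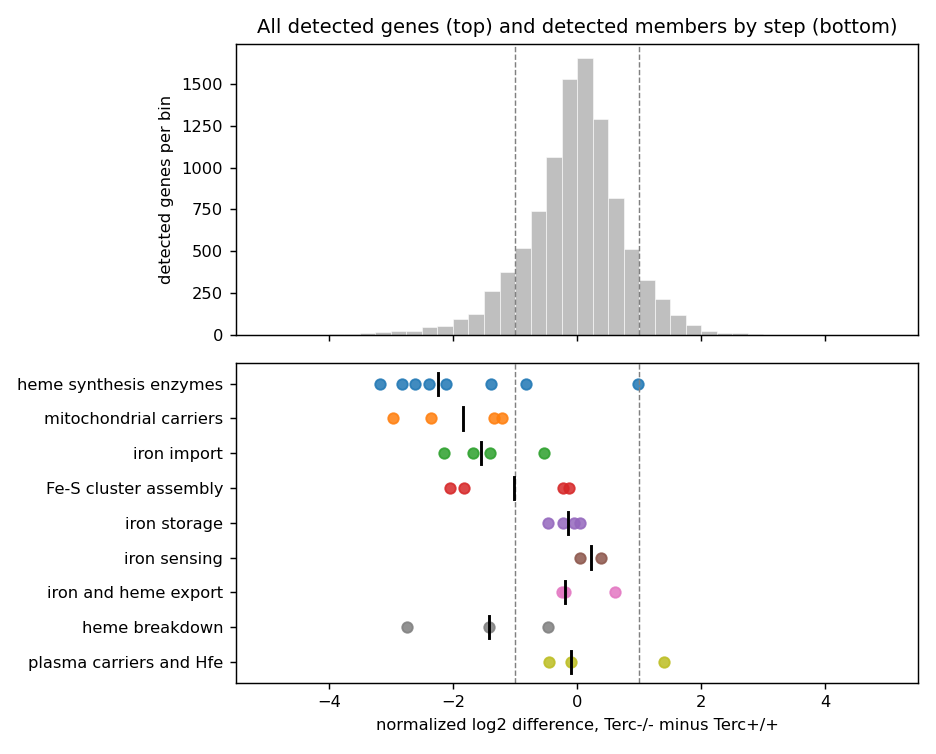
The upper panel counts all 9953 detected genes by normalized log2 difference, Terc-/- minus Terc+/+, in bins of 0.25, and the lower panel shows the 35 detected members as points, 1 row per step, with a black bar at the median of the step and dashed lines at 2-fold. The rows for synthesis, carriers, import and heme breakdown have medians from -2.25 to -1.41, and those for storage, sensing, export and plasma carriers lie between -0.20 and 0.22.

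The enzymes of heme synthesis stood lowest, with 6 of 8 at least 2-fold lower in Terc-/- and a median of -2.25. Alas2, the 5-aminolevulinate synthase of red-cell precursors, which makes the first intermediate, had a raw intensity of 3568 in Terc-/-, against 27704 in Terc+/+. Its log2 difference of -3.18, or 9.09-fold lower, was the lowest of all members, and 34 of the 9953 detected genes were that low. Alas1 encodes the same activity in tissues generally and differed in the other direction. Its raw intensity was 18005 in Terc-/-, against 8076 in Terc+/+, and its difference of 0.99 (1.98-fold) lay just inside the 2-fold limit. Each of these paralogs rests on 1 probe.

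The start regions of this pair are shown because the paralogs differed in opposite directions. Both windows are the 250 bases before an annotated start, from RefSeq on build GRCm38.p6, written 5′ to 3′ on the strand of the gene. Alas2 lies at chrX:150547167-150547416 on the plus strand. Alas1 has 2 annotated starts, and the upstream window is given, at chr9:106247955-106248204 on the minus strand. Capitals mark the GATA motif AGATAA (as TTATCT on the other strand) and the CACCC box (as GGGTG).
Alas2: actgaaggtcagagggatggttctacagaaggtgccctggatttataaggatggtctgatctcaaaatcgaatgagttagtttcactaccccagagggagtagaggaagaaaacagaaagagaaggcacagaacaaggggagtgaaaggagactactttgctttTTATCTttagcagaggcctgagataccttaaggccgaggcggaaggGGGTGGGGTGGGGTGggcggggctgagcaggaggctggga
Alas1: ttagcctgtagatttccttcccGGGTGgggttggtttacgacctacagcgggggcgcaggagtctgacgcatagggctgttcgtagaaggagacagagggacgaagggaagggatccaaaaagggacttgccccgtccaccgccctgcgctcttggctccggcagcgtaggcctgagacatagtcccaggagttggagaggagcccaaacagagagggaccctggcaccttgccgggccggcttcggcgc

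The Alas2 window held 1 AGATAA, 86 bases before the start, and 3 adjacent CACCC boxes, the farthest 40 bases before the start. The Alas1 window held no AGATAA and 1 CACCC, 228 bases before the start. These are letter matches on both strands and not measured binding sites. AGATAA is bound by GATA factors and CACCC boxes by Krüppel-like factors, families that include Gata1 and Klf1 of red-cell precursors. Promoters were found for 27 of the 36 members, 40 windows in all. AGATAA was in 5% of these windows and in 9.99% of all 32851 windows of the table. CACCC was in 62.5% of the members' windows and in 52% of all windows. Among the 19 windows of members at least 2-fold lower, 1 held AGATAA and 14 (73.7%) held CACCC. The core of the antioxidant response element, TGACNNNGC, was in 20% of the members' windows and in 10.2% of all, and in 2 (10.5%) of the 19 windows of lower members.

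The cytosolic enzymes that follow were lower together. Alad, which joins 2 aminolevulinate molecules into porphobilinogen, read 2682 in Terc-/- and 11926 in Terc+/+, a difference of -2.38 (5.22-fold lower). Uros, uroporphyrinogen III synthase, read 375 in Terc-/- and 1919 in Terc+/+, a difference of -2.83, and its other detected probe gave -3.19. Urod, which decarboxylates the uroporphyrinogen ring, read 4825 in Terc-/- and 17469 in Terc+/+, a difference of -2.11. All 3 differences exceeded the spread between probes of a gene, and Alad and Urod rest on 1 probe each.

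The last, mitochondrial steps were also lower where they could be measured. Fech, ferrochelatase, which inserts iron into the finished ring, read 211 in Terc-/- and 725 in Terc+/+. Its difference of -2.61 was -1.81 with the background left in. Both other detected Fech probes were above background in Terc+/+ only. On the background-corrected scale they were at least 3.85-fold and 3.75-fold lower, with raw ratios of 2.03 and 2.01. A further Fech probe was above background on neither array. Ppox, protoporphyrinogen oxidase, read 1113 in Terc-/- and 2539 in Terc+/+, and both of its probes differed alike, by -1.40 and -1.38. Cpox, coproporphyrinogen oxidase, was above background in Terc+/+ only, at 176, against 151 in Terc-/-. On the background-corrected scale Cpox was at least 1.22-fold lower, a bound for that scale only, since the ratio of the raw intensities was 1.16. Its other 3 probes were above background on neither array, so Cpox was scarcely measured.

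**Figure D2:**
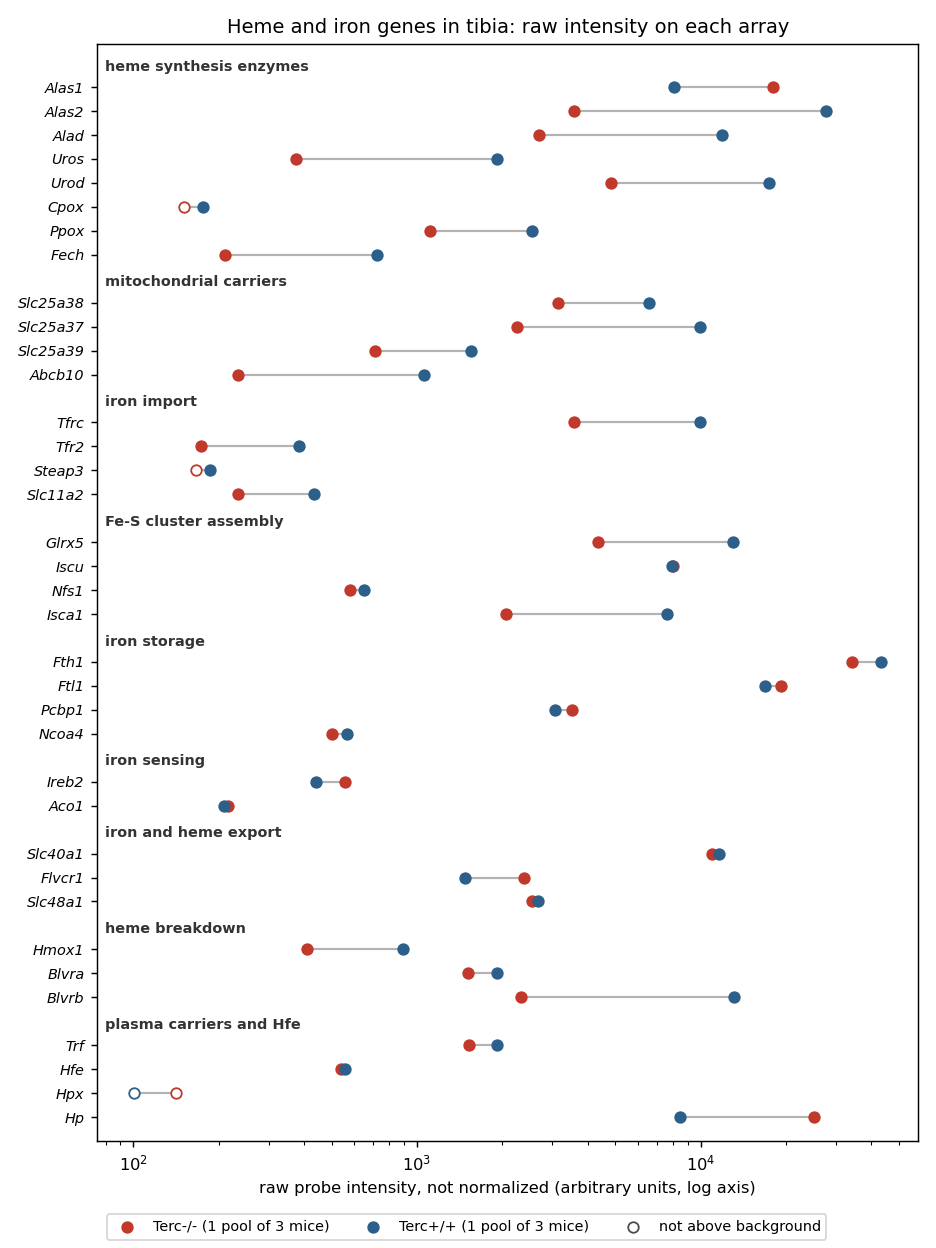
Raw, non-normalized probe intensity (arbitrary units, log axis) of the brightest detected probe of each member, with Terc-/- in red and Terc+/+ in blue, each point 1 array of RNA pooled from 3 mice and open points not above background. The widest gaps are those of Alas2, Blvrb and Uros, where Terc-/- lies to the left, and Hp and Alas1 are the clearest cases with Terc-/- to the right.

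All 4 mitochondrial carriers of the set were at least 2-fold lower in Terc-/-, with a median of -1.84. Abcb10, an inner-membrane transporter needed for heme formation in red-cell precursors, read 235 in Terc-/- and 1057 in Terc+/+, a difference of -2.97 (7.81-fold lower). This difference was -2.23 with the background left in. The dimmer Abcb10 probe was above background in Terc+/+ only, at 118 in Terc-/- and 158 in Terc+/+, and gives no bound. Slc25a37, or mitoferrin-1, which brings iron into the mitochondria of these cells, read 2260 in Terc-/- and 9977 in Terc+/+, a difference of -2.35. A dim further probe of Slc25a37 went the other way. That Slc25a37 probe was above background in Terc-/- only, at 225.5 against 108.8 in Terc+/+. It was at least 2.44-fold higher on the background-corrected scale, with a raw ratio of 2.07. The mean over both probes was -0.02, with the dim probe at its normalized value and not at its bound. Slc25a38, the glycine importer that feeds aminolevulinate synthase, read 3154 in Terc-/- and 6561 in Terc+/+, and its 3 probes differed by between -1.22 and -0.86. Slc25a39, which carries glutathione into mitochondria, read 709 in Terc-/- and 1547 in Terc+/+, a difference of -1.33.

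Iron import was lower in 3 of 4 genes, with a median of -1.54. Tfrc, the transferrin receptor through which red-cell precursors take up iron, read 3589 in Terc-/- and 9962 in Terc+/+. Its 2 probes differed by -1.68 and -1.83. Slc11a2, the divalent metal transporter that releases iron from the endosome, read 233 in Terc-/- and 434 in Terc+/+, a difference of -1.41, which was -0.92 with the background left in. Tfr2, a second transferrin receptor that senses iron in liver and red-cell precursors, read 173 in Terc-/- and 385 in Terc+/+. Its difference of -2.15 was -1.19 without background correction. A dimmer Tfr2 probe was above background in Terc+/+ only, at 161 in Terc-/- and 154 in Terc+/+, and gives no bound. Steap3, the endosomal ferrireductase, was above background in Terc+/+ only, at 186, against 167 in Terc-/-. Steap3 was at least 1.39-fold lower on the background-corrected scale, and the ratio of its raw intensities was 1.12.

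The Fe-S cluster genes split into 2 pairs. Isca1, which carries clusters to late-acting mitochondrial proteins, read 2064 in Terc-/- and 7605 in Terc+/+, and its 2 probes differed by -2.06 and -2.08. Glrx5, the glutaredoxin that hands on new clusters, read 4332 in Terc-/- and 13030 in Terc+/+, a difference of -1.82 (3.52-fold lower). The core genes of the assembly machinery lay within 2-fold. Iscu, the scaffold on which clusters are built, read 7990 in Terc-/- and 7939 in Terc+/+, a difference of -0.13 whose sign changed with the processing. Nfs1, the cysteine desulfurase that supplies the sulphur, read 580 in Terc-/- and 650 in Terc+/+, a difference of -0.23. A dimmer Nfs1 probe, above background on both arrays at 181 in Terc-/- and 227 in Terc+/+, differed by -0.76. A loss of Glrx5 is known from zebrafish and people to impair heme synthesis as well.

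**Figure D3:**
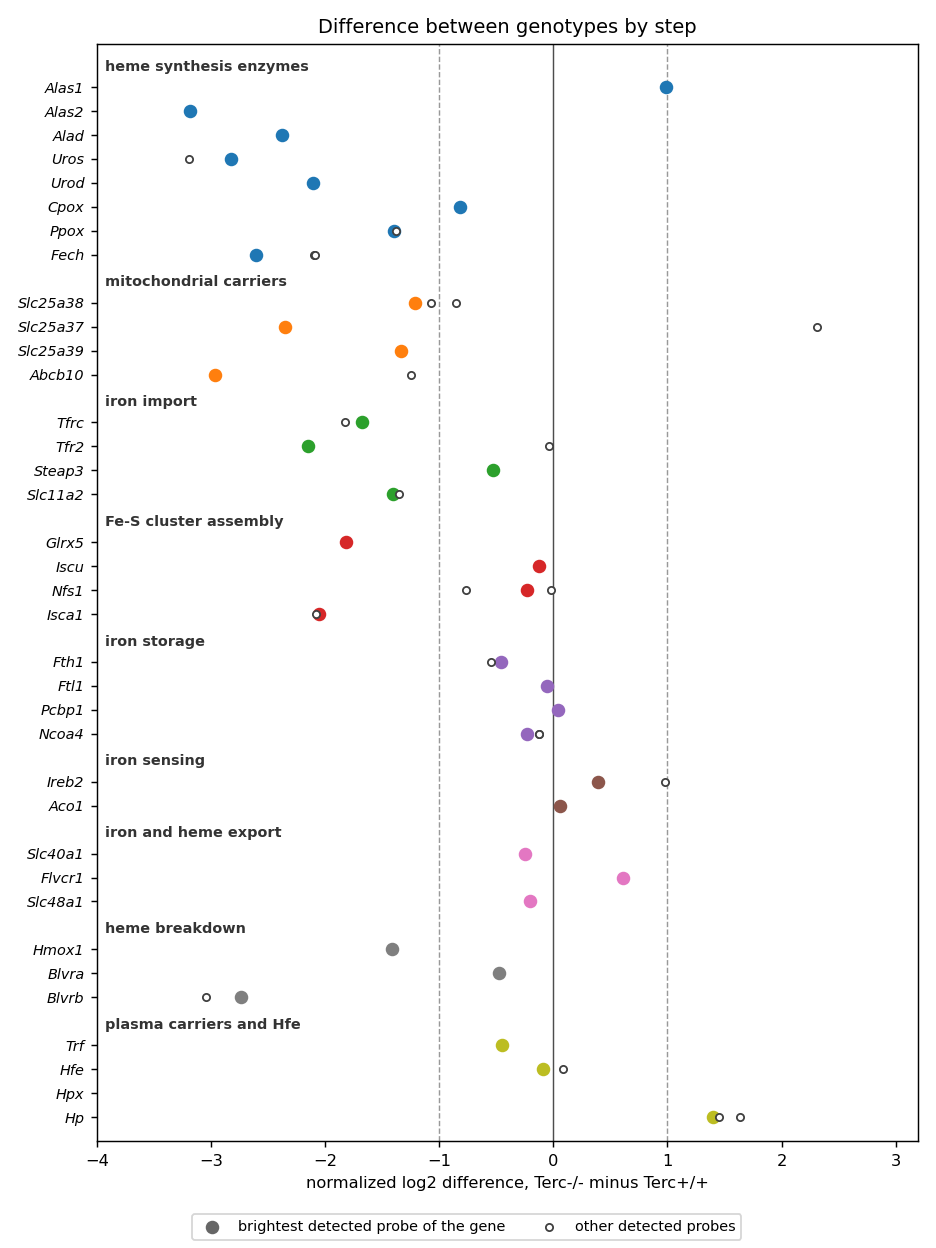
Normalized log2 difference, Terc-/- minus Terc+/+, of each member by step, with large coloured points for the brightest detected probe, small open points for the other detected probes (those above background on 1 array only at their normalized difference), and dashed lines at 2-fold. Points for synthesis and carriers sit left of the lower line apart from Alas1, Cpox, the further probe of Slc25a37 and 1 further probe of Slc25a38 at -0.86. The further Slc25a37 probe, not above background in Terc+/+, is drawn at 2.31, and only a bound is known for it.

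None of the 4 iron storage genes reached 2-fold, and their median was -0.14. Fth1, the heavy chain of ferritin that oxidises iron as it enters the shell, read 34283 in Terc-/- and 43258 in Terc+/+. Its 2 probes differed by -0.46 and -0.54. The brightest probe of each array read 54575 in Terc-/- and 49790 in Terc+/+, so Fth1 lay near the top of the scale, and whether its difference was compressed was not tested. Ftl1, the light chain, read 19150 in Terc-/- and 16881 in Terc+/+, a difference of -0.06. Ferritin genes have near-identical copies in the mouse genome, so these probes may pool signal. Pcbp1, a chaperone that delivers iron to ferritin, read 3522 in Terc-/- and 3076 in Terc+/+, a difference of 0.04. Ncoa4, the receptor that sends ferritin for degradation, read 503 in Terc-/- and 565 in Terc+/+, a difference of -0.23. The signs for Ftl1 and Pcbp1 changed with the processing.

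Sensing and export were likewise within 2-fold. Ireb2, iron regulatory protein 2, read 556 in Terc-/- and 442 in Terc+/+. Its difference was 0.39, and 0.98 on a dimmer probe. Aco1, the aconitase that doubles as the other iron regulatory protein, read 216 in Terc-/- and 209 in Terc+/+, a difference of 0.05 with an unsettled sign. Slc40a1, ferroportin, the only known iron exporter of mammalian cells, read 10939 in Terc-/- and 11600 in Terc+/+, a difference of -0.25. Slc48a1, which moves heme out of the phagolysosome of macrophages, read 2543 in Terc-/- and 2661 in Terc+/+, a difference of -0.20. Flvcr1, a membrane transporter reported to export heme and to import choline, read 2392 in Terc-/- and 1472 in Terc+/+. Its difference of 0.61, or 1.53-fold higher, was the largest of these 5 genes.

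Heme breakdown was uneven. Hmox1, heme oxygenase 1, which opens the heme ring, read 410 in Terc-/- and 890 in Terc+/+, a difference of -1.41 (2.66-fold lower). The 2 biliverdin reductases that act after it differed from each other. Blvrb, abundant in red cells, read 2321 in Terc-/- and 13135 in Terc+/+, a difference of -2.74 (6.68-fold lower), with -3.05 on its other probe. Blvra, which makes the bilirubin of adult plasma, read 1508 in Terc-/- and 1909 in Terc+/+, a difference of -0.48.

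Among the plasma proteins and Hfe, Hp was the exception of the whole set. Hp encodes haptoglobin, which binds free haemoglobin and is made in liver and also stored in granules of neutrophils. It read 25034 in Terc-/- and 8428 in Terc+/+, and its 3 probes differed by between 1.40 and 1.63 (2.64-fold higher on the brightest). Hpx, hemopexin, the plasma carrier of heme, had a probe at 141 in Terc-/- and 101 in Terc+/+ and was below background on both arrays. Trf, transferrin, read 1531 in Terc-/- and 1909 in Terc+/+, a difference of -0.45. Hfe, a regulator of transferrin receptors and of hepcidin, read 540 in Terc-/- and 559 in Terc+/+, and its 2 probes gave -0.09 and 0.08.

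The direction was mostly shared by further probes of a gene. Of 17 members with more than 1 detected probe, all probes had the same sign in 15, with probes above background on 1 array only counted at their normalized value. The exceptions were Slc25a37 and Hfe. Among those with the same sign, Tfr2 and Nfs1 each had a dim probe close to 0, at -0.04 and -0.02. The raw readings of these dim probes were slightly higher in Terc-/-, 161.0 against 154.3 in Terc+/+ for Tfr2 and 161.4 against 154.4 for Nfs1. For 18 detected members there was only 1 detected probe, Alas2 and Alas1 among them.

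Genes of the pathway outside the set were also examined, from a list of 72 symbols, some of them synonyms of the same gene. Of the 60 with a probe, 39 were detected, 8 (20.5%) were at least 2-fold lower and 1 (2.56%) higher, with a median of -0.29. Of all detected genes, 8.81% were lower and 6.86% higher, with a median of 0.01. Slc6a9, the plasma-membrane glycine transporter that supplies heme synthesis in red-cell precursors, read 557 in Terc-/- and 3657 in Terc+/+, a difference of -3.09. Several of the other lower genes act in mitochondria. Fam210b, needed for iron entry into heme, differed by -1.91, and Abcb6, a porphyrin transporter, by -1.85. The Fe-S factors Iba57, Bola3 and Cisd1 differed by -1.91, -1.43 and -1.21. Eif2ak1, the kinase that slows globin translation when heme is short, differed by -1.18, and Cp, the plasma ferroxidase ceruloplasmin, by -1.08. Their further probes differed by less, -0.36 for Eif2ak1 and -0.53 for Cp. Fbxl5, the iron-sensing ubiquitin ligase that removes iron regulatory proteins, was the gene that was higher, reading 886 in Terc-/- and 309 in Terc+/+, a difference of 1.90 on 1 probe.

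**Figure D4:**
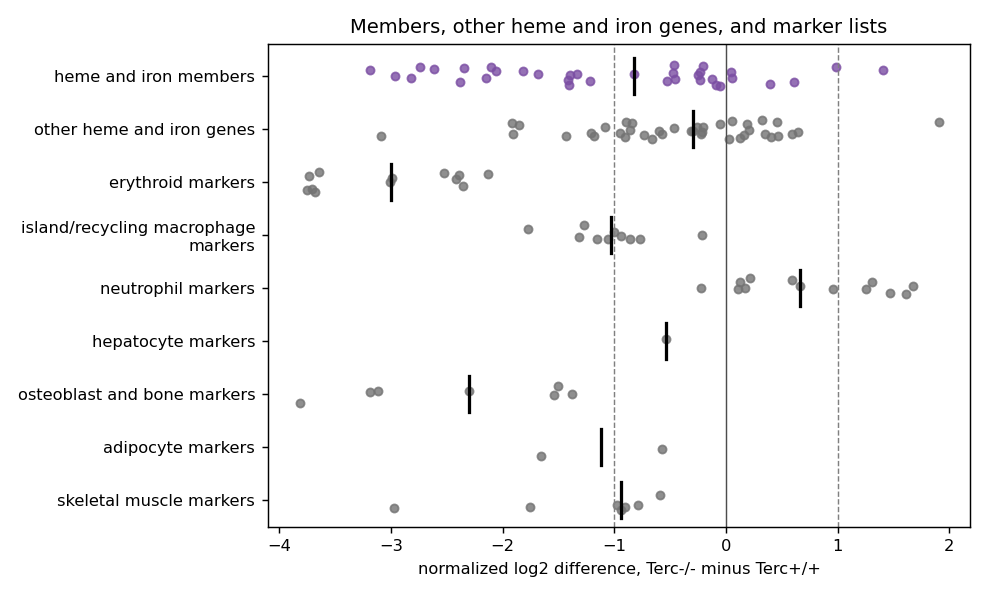
Normalized log2 difference, Terc-/- minus Terc+/+, for each detected gene (points, spread vertically for visibility) of the members, of other heme and iron genes and of 7 marker lists, with a black bar at the median of the list and dashed lines at 2-fold. Erythroid markers have a median of -3.00, below the members' -0.82, and neutrophil markers a median of 0.66.

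Markers of cell types that the tibia holds also differed, and their part in the results above was not tested. All 12 detected erythroid markers of 15 listed were at least 2-fold lower in Terc-/-, from -3.75 to -2.13, with a summed normalized intensity of 13237 in Terc-/- and 76161 in Terc+/+. Examples are Slc4a1, the band 3 anion exchanger, at -2.13, Sptb, beta spectrin, at -3.01 and Trim10 at -3.71, although another Sptb probe gave 0.70. The brightest probes weigh most in this sum and in those below. Here that probe was Slc4a1, with raw intensities of 10828 in Terc-/- and 42455 in Terc+/+. Beside Hmox1, Slc40a1 and Slc48a1 stand 10 detected markers of island and recycling macrophages, with a sum of 9271 in Terc-/- and 18024 in Terc+/+ and a median of -1.03. They include Vcam1 at -0.77, C1qb at -1.32 and C1qc at -1.06, while Marco and Cd5l were not above background. Beside Hp stand 13 detected neutrophil markers, with a sum of 398622 in Terc-/- and 287386 in Terc+/+ and a median of 0.66. The 3 with the highest mean were within 2-fold, Lcn2 at 0.59, Mpo at 0.17 and Ltf at -0.23, and their raw intensities lay near the top of the scale. Further detected probes reached 1.99 for Mpo and 0.86 for Ltf. Ltf was the only one of the 13 below 0. The 5 that were at least 2-fold higher, named after their values were seen, were Ctsg at 1.68, Prtn3 at 1.61, Mmp8 at 1.47, Cxcr2 at 1.31 and Elane at 1.25. Of 7 hepatocyte markers, Serpina1a alone was detected (-0.54), and Alb, Apoa1, Apoa2, Ttr, Ahsg and Fgb were not above background on either array.

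The tissue label held in both pools, since 7 of 8 bone markers with a probe were detected, although Dmp1 was not. All 7 were at least 2-fold lower in Terc-/-, with a sum of 11894 in Terc-/- and 85744 in Terc+/+, among them Bglap2 at -3.19, Bglap at -3.82 and Col1a1 at -2.30. Of 7 muscle markers 2 were at least 2-fold lower, with a median of -0.94, including Acta1 at -0.97, Tnnt3 at -0.91 and Mb at -2.98. Of the adipocyte markers, Adipoq at -1.66 and Lep at -0.58 were detected.

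**Figure D5:**
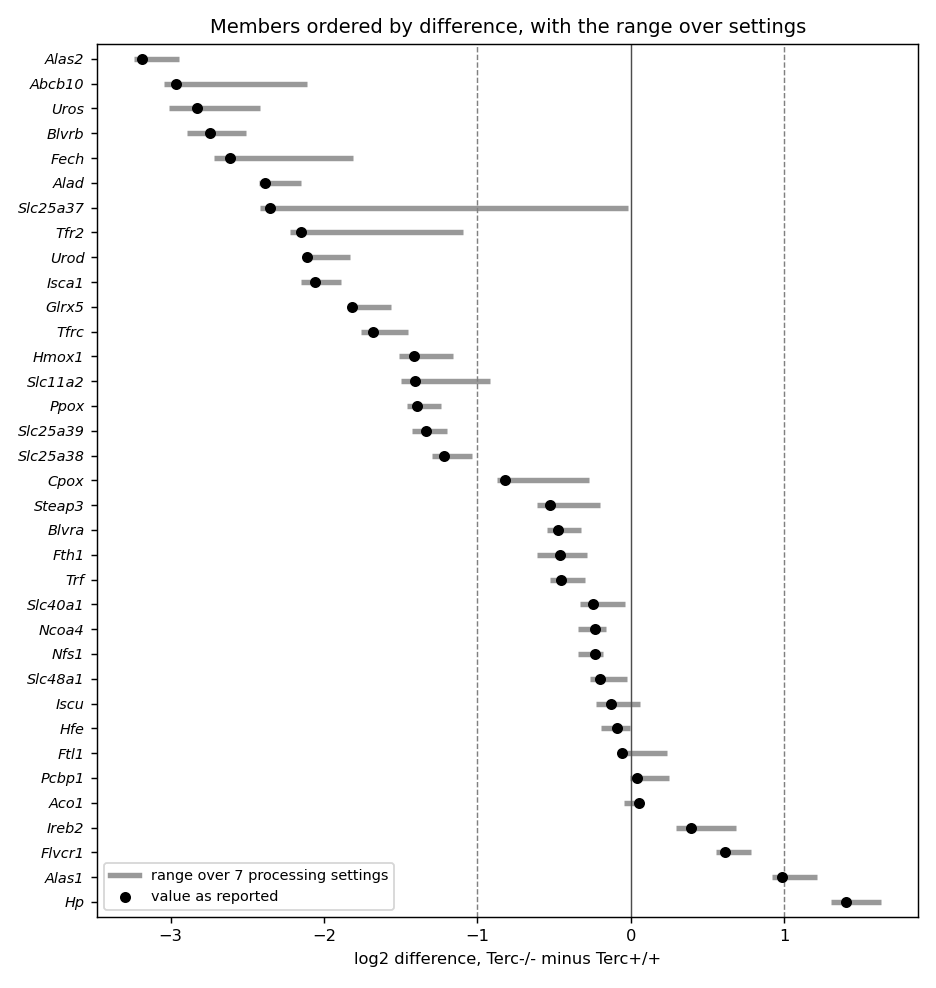
Log2 difference, Terc-/- minus Terc+/+, of the 35 detected members in order, with the reported value as a black point and a grey bar for the range over 7 settings (the reported one and 6 alternatives). Bars of the 17 lower members stay left of 0, with Slc25a37 reaching -0.02, and those of Alas1, from 0.92 to 1.22, and Hp, from 1.31 to 1.63, stay right of it.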

How the data were processed

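Labelled cRNA from 1 pool of tibia RNA per genotype (3 mice each) was read on Illumina bead arrays. Per the file headers, the authors deposited, for 45281 probes, a non-normalized intensity with its detection p-value. The deposited intensity is linear and not background-subtracted, and the detection p-values move in steps that imply 936 negative controls. A second deposited table holds an intensity per probe whose equal sorted values on both arrays are those of quantile normalization, and how it was made is not given in the sources used here. Background was corrected here with the normexp model from the detection p-values (nec, limma 3.58.1, R 4.3.3, offset 16), followed by quantile normalization and log2. Of the probes, 34885 had 1 gene symbol, 18 several and 10378 none. A gene is its brightest probe among those with detection p under 0.01 on at least 1 array. Where a gene was above background on 1 array only, it counts by a bound against the higher of its own value and the lowest detected signal of the other array. With 1 array per genotype nothing could be tested, and precision is limited by that number. Saturation flags were not used here. The members, lists and motifs were chosen with earlier results of these data known. Every member is named. Of other pathway genes those past 2-fold are named, and of each marker list up to 3 genes with the highest mean. The procedure was tested on simulated data made from the Terc+/+ array, with known changes only in probes well above background. That simulation does not cover dim genes, bounds or error between arrays. Figures used matplotlib 3.10.9.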

Additional observations from a re-analysis of the deposited data

How the results depend on the processing

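Across 9 alternatives of background, scaling, probe choice and detection filter, 16 or 17 members were at least 2-fold lower in Terc-/-, each time among the same 17 genes. The share of all genes that were lower ranged from 4.89% without background correction to 10.2% with cyclic loess. Slc11a2 left the count without background correction and with the deposited normalized values, and Slc25a37 with the mean of detected probes. At 3-fold, 12 members were lower. The count of members at least 2-fold higher was 2 with scaling to a common median, which brought in Alas1, where 7.91% of all genes were higher. At a 1.5-fold limit 3 members were higher and at 3-fold 0, and the share of all genes at these limits was not counted. Against the reported -0.82, the members' median was -0.46 without background correction, -0.50 with an offset of 50 and -0.51 with the deposited normalized values. It was -0.53 with the mean of detected probes and -1.22 over members detected on both arrays. With the other alternatives it lay between -0.87 and -0.67. Of the 35 detected members, Aco1, Ftl1, Iscu and Pcbp1 changed sign under at least 1 of 6 alternatives. The reported difference of each was under the SD of 0.31 between probes of a gene. The median of all genes lay between -0.07 and 0.08. Cpox and Steap3, above background on 1 array only, have bounds and no measured difference, and with both at their bounds, an alternative chosen after seeing the data, the members' median was -0.48. Over the alternatives Slc25a37 ranged from -2.41 to -0.02 and Tfr2 from -2.22 to -1.09. Abcb10 ranged from -3.04 to -2.11, Fech from -2.71 to -1.81 and Uros from -3.01 to -2.42. No paired analysis was possible because each genotype has 1 array.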
